A study of Mus musculus with 28 samples.

Results

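The genes described here are 36 markers of the oligodendrocyte lineage and of myelin, read in the ventromedial prefrontal cortex of 28 female mice. They were taken by gene symbol from the 52636 genes of the count tables. They cover the precursor stage (Pdgfra, Cspg4, C1ql1, Lhfpl3), cells committed to differentiate (Gpr17, Bcas1, Enpp6, Tcf7l2) and the transcription factors of the lineage (Sox10, Olig1, Olig2, Nkx2-2, Nkx6-2, Myrf). The remainder code for myelin structure (Mbp, Mobp, Mal, Pmp22, Cldn11, Tspan2, Cnp, Plekhb1, Gjb1), the myelin surface (Mog, Mag, Opalin, Ermn, Hapln2), myelin lipids (Ugt8a, Gal3st1, Fa2h, Aspa) and secreted or signalling proteins of mature cells (Trf, Klk6, Enpp2, Lpar1).

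The 4 groups of 7 mice were Slit1 knockdown virus without stress, Slit1 knockdown virus with stress, LacZ virus without stress and LacZ virus with stress. Every mouse, controls included, had received a virus, and stress was 3 days of a procedure that the labels call sCVS. Slit1 encodes a secreted axon guidance protein, LacZ is the control insert, and the punched tissue held infected and uninfected cells together. The libraries were made from ribosome-depleted total RNA with random primers, 1 mouse each.

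Oligodendrocyte precursors divide throughout life in the cortex and carry the growth factor receptor Pdgfra and the proteoglycan Cspg4 (NG2). Some of them leave the cycle, pass through a short committed stage marked by Gpr17, Bcas1 and Enpp6, and under Sox10 and Myrf switch on the proteins and lipids that build the myelin sheath. In frontal cortex much of the myelin lies in deep layers and in the white matter below, so a tissue punch can hold more or less of it.

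Of the 36 genes, 34 had a count in some library and 33 were tested among 19171 genes. C1ql1 and Gpr17 were listed at 0 in all 28 libraries and Trf had 0 to 5 counts, with 13 libraries at 0. The span of C1ql1 lies 100% inside Gm26668, that of Gpr17 100% inside Lims2 and that of Trf 99.5% inside Gm20425. Fragments in overlapping genes were counted for neither gene, so these 3 values do not show absence. Cnp, which overlaps Dnajc7 over 53% of its span, and Nkx2-2, overlapped over 60.9%, were read from the remainder of their spans. Bcas1 lost 32.2% and Enpp6 lost 28% of their spans in the same way.

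Total counts ran from 30.6 to 44.3 M per library, and the groups did not separate the libraries. The main axis of variation, with 58.8% of the variance, followed the slope of a library's log2 levels on the GC content of exons (r = 0.996 over 28 libraries), which ran from -1.17 to 1.21 per 10 points of GC. Exonic GC was that of each gene's longest transcript. The mitochondrial share of counts ran from 2.3% to 14.2%. CPM are counts scaled to library depth with TMM normalisation factors, given for the lowest, median and highest library. Without stress the targeted gene Slit1 had 9.48, 21.4 and 59.9 CPM under the knockdown label and 12.6, 16.9 and 56.3 CPM under LacZ. With stress Slit1 had 7.48, 13 and 30.9 CPM under the knockdown label and 9.28, 13.5 and 33.9 CPM under LacZ. Its log2 fold change over both stress states was -0.02 ± 0.3 (SE; adjusted p = 1, edgeR quasi-likelihood test with Benjamini-Hochberg adjustment), so every direction given for the knockdown rests on the label. Slit1 knockdown stressed replicate 2 stood apart with 1720 CPM of summed fibroblast and bone matrix markers, against 20.1 to 123 CPM in the other libraries.

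Promoter sequences are shown for 4 genes whose levels are described below: Pdgfra as the precursor gene, and Mog, Mobp and Mag as myelin genes. The levels of these myelin genes are set against each other below, and the part of the motifs in them was not tested. They come from RefSeq on GRCm38.p6, 250 bases before to 50 after the gene's start, in the direction of transcription. Capitals mark ACAAAG on either strand (CTTTGT on the other), the core bound by SOX factors such as Sox10, and CAGCTG, an E-box of the kind bound by basic helix-loop-helix factors such as Olig2. The first motif stood in 18.7% of all 32851 promoters of the same length and the second in 16.3%.
Pdgfra, chr5:75152001-75152300, plus strand: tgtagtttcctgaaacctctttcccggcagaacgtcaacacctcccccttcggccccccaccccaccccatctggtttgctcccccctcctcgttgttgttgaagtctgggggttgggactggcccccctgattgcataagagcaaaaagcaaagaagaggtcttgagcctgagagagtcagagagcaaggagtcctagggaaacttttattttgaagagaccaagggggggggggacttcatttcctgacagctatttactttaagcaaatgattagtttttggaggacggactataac
Mog, chr17:37023349-37023648, minus strand: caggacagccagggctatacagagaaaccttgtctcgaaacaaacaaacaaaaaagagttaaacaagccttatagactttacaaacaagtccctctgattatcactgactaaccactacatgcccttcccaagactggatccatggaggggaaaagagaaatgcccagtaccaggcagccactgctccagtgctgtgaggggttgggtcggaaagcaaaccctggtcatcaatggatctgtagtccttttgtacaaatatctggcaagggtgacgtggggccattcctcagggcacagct
Mobp, chr9:120149492-120149791, plus strand: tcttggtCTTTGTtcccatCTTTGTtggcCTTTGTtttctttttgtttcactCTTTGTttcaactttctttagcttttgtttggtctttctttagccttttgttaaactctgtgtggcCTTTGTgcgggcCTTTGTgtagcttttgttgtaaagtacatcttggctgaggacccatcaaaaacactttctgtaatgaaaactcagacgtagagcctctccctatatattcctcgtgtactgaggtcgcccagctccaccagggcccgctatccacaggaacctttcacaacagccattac
Mag, chr7:30914814-30915113, minus strand: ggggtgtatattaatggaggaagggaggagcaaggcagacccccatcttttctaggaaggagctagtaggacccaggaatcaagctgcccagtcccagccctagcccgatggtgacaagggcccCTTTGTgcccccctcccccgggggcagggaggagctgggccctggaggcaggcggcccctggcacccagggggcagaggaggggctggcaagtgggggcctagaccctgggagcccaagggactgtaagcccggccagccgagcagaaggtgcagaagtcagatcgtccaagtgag
The Mobp promoter held 6 matches of the first motif, none overlapping another, and that of Mag held 1. Pdgfra and Mog held neither motif in this window. Of the 26 members with a promoter in the table, 6 held the first motif and 4 the second. Opalin, a protein of the myelin surface, held 2 matches of the first and 1 of the second.

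Levels were compared between genes per kilobase of the counted span, which includes introns. Among the members tested, the median over libraries was highest for the transcription factor Olig1 at 4.48 CPM per kb, followed by the tight-junction protein Cldn11 at 2.86, the cytoskeletal protein Ermn at 2.79 and the lysophospholipase Enpp2 at 2.39. The myelin proteins Mal, Cnp and Mbp had 1.9, 1.79 and 0.706 CPM per kb, and Mog had 0.705. Pdgfra had 0.955 CPM per kb and Cspg4 0.0421, so the precursor markers stood far apart from each other on this scale. Exons make up 100% of the span of Olig1 and 7.66% of that of Mbp, so unspliced RNA weighs differently in each.

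No member passed an adjusted p under 0.05 in any of the 7 comparisons, and no gene of the 19171 did (0%). By edgeR, 1 member had an unadjusted p under 0.05 for the knockdown label without stress (0.897% of all genes did), 0 with stress (0.824%), 1 for stress under LacZ (0.402%) and 1 for stress under the knockdown label (1.79%). For the interaction of label and stress 0 members did (0.355% of all genes), for the label averaged over stress 2 did (1.52%) and for stress averaged over both viruses 0 did (2.21%). DESeq2, limma with voom quality weights and an edgeR fit with the library GC slope as covariate also called 0 members and 0 genes. At an unadjusted p under 0.05 their counts in the same order of comparisons were 1, 0, 1, 1, 0, 2 and 1 members by DESeq2, 2, 1, 0, 0, 0, 6 and 0 by limma and 1, 0, 1, 1, 0, 2 and 2 with the covariate. Over the 7 comparisons, 68 to 424 of all 19171 genes had such a p by edgeR. In the same order, the counts over all genes were 253, 175, 123, 473, 73, 373 and 606 by DESeq2. By limma they were 694, 870, 673, 935, 576, 1210 and 1258. With the covariate they were 978, 424, 359, 1629, 169, 1415 and 1954. The 6 members of 33 by limma, for the label averaged over stress, were Ermn, Tspan2, Ugt8a, Pmp22, Aspa and Mog. They stand beside 1210 of all 19171 genes there. The members also varied widely: over the 28 libraries with the groups pooled, the median SD of log2 CPM was 0.64 for the 33 members and 0.55 for all genes tested. In bulk tissue, fewer cells of a type and less RNA per cell cannot be told apart.

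**Figure D1:**
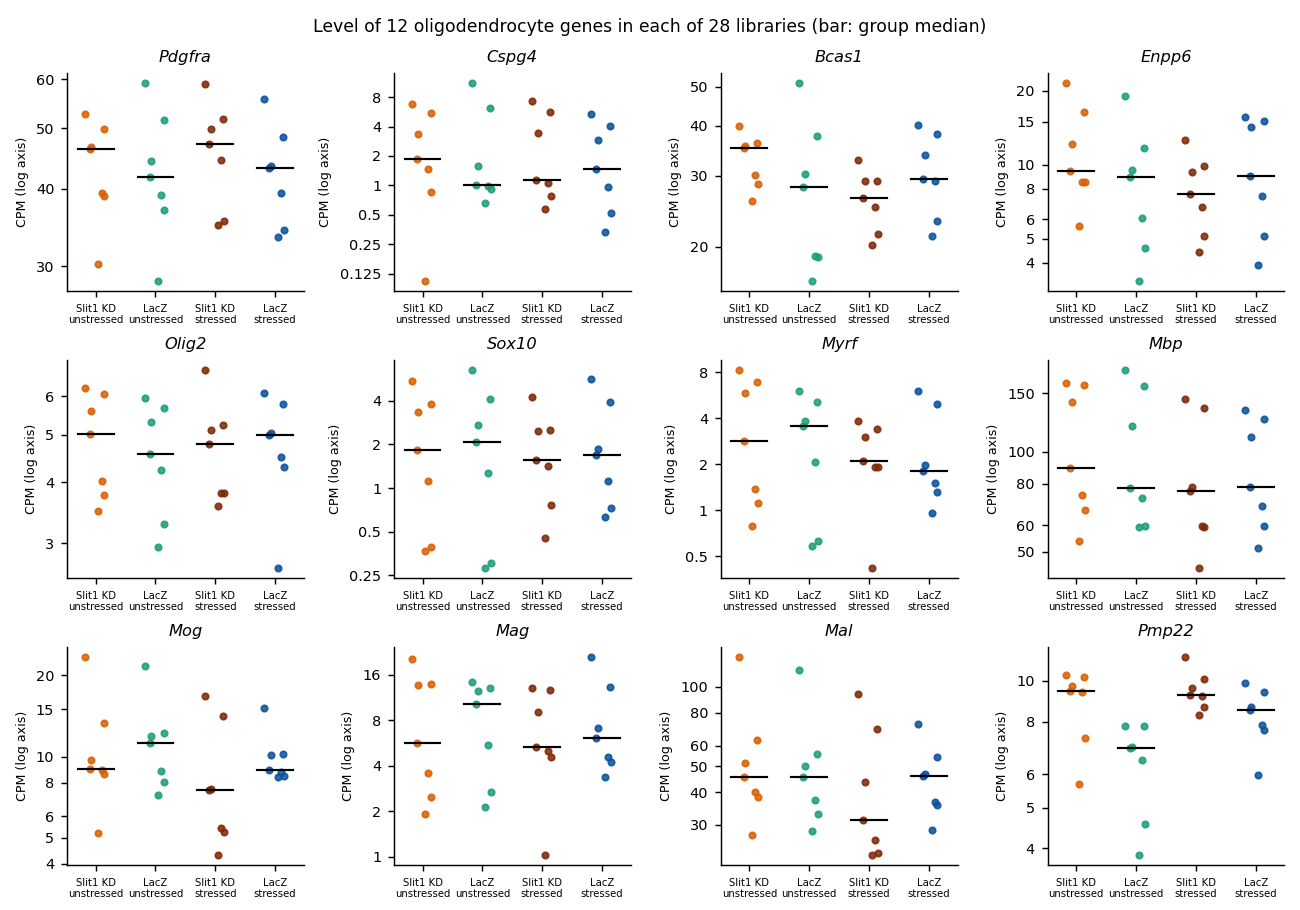
Level of 12 genes in CPM on a log axis in each library, in 4 groups of 7, with points for mice and bars for group medians. In each gene shown the range of the knockdown points overlaps that of LacZ in the same stress state. The range of LacZ holds 1 of 7 knockdown libraries for Mog with stress and 2 of 7 for Pmp22 without stress, the lowest such counts among the genes shown.

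Among the precursor genes, Pdgfra, the receptor for platelet-derived growth factor, was the steadiest. Without stress it had 30.3, 46.4 and 52.7 CPM (lowest, median and highest of 7) under the knockdown label and 28.4, 41.8 and 59.1 CPM under LacZ. With stress Pdgfra had 35, 47.1 and 58.9 CPM under the knockdown label and 33.4, 43.2 and 55.8 CPM under LacZ. The 4 ranges lie almost on top of each other, and the highest library held 2.08 times the lowest. Its log2 fold change was 0.01 ± 0.16 (SE) for the knockdown label without stress, 0.12 ± 0.16 with stress, -0.02 ± 0.16 for stress under LacZ and 0.09 ± 0.16 for stress under the knockdown label (edgeR, adjusted p = 1 for each).

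Cspg4, the NG2 proteoglycan, is a marker of the same cells, yet spread 105-fold over the libraries. Without stress it had 0.105, 1.85 and 6.8 CPM under the knockdown label and 0.667, 1.01 and 11.1 CPM under LacZ. Cspg4 had 0.58, 1.14 and 7.23 CPM in stressed knockdown libraries and 0.334, 1.47 and 5.33 CPM in stressed LacZ libraries. Each group held both low and high libraries, and the standard error of its log2 fold change was 0.76 or 0.77 in each comparison of 2 groups. Lhfpl3, a tetraspan membrane protein enriched in precursors, had 67.4 to 307 CPM over all libraries. Its log2 fold change was -0.21 ± 0.29 for stress under either virus (edgeR, adjusted p = 1).

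Enpp6, a choline phosphodiesterase of newly forming oligodendrocytes, had 5.65, 9.44 and 21.5 CPM under the knockdown label and 3.36, 8.91 and 19 CPM under LacZ without stress. With stress Enpp6 had 4.41, 7.61 and 12.6 CPM under the knockdown label and 3.91, 8.97 and 15.7 CPM under LacZ. All 4 ranges overlap, with the stressed knockdown group lowest by median. Bcas1, a marker of early myelinating cells, had 26, 35.2 and 40 CPM under the knockdown label without stress and 16.4, 28.2 and 51 CPM under LacZ. In stressed mice Bcas1 had 20.2, 26.4 and 32.9 CPM under the knockdown label and 21.2, 29.4 and 40.2 CPM under LacZ. The knockdown ranges with and without stress share the stretch between 26 and 32.9 CPM.

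For stress under the knockdown label the log2 fold change was -0.56 ± 0.37 for Enpp6 and -0.33 ± 0.21 for Bcas1 (edgeR, adjusted p = 1). Under LacZ it was 0.16 ± 0.37 for Enpp6 and 0.09 ± 0.2 for Bcas1. The interaction of label and stress, which tests that difference, was -0.73 ± 0.52 for Enpp6 and -0.42 ± 0.29 for Bcas1 (edgeR, adjusted p = 1). Neither was past its threshold. Tcf7l2, a Wnt effector that is transiently high as precursors differentiate and that thalamic neurons also carry, had 12.1, 19.1 and 70 CPM under the knockdown label and 10.8, 17.8 and 31.2 CPM under LacZ without stress. Its log2 fold change for the label over both stress states was 0.49 ± 0.23 (edgeR, unadjusted p = 0.0419, adjusted p = 1), with 10 of 14 knockdown libraries above the LacZ mean. The value was between 0.28 and 0.57 when each library was left out in turn, and it was lowest without the highest of them, knockdown unstressed replicate 2. By DESeq2 and with the GC slope as covariate, Tcf7l2 also had an unadjusted p under 0.05 there. By limma it did not.

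The transcription factors differed in their spread between libraries. Olig2, needed to specify the lineage, had 3.49, 5.03 and 6.23 CPM under the knockdown label and 2.95, 4.56 and 5.96 CPM under LacZ without stress. In stressed mice Olig2 had 3.58, 4.79 and 6.79 CPM under the knockdown label and 2.67, 4.99 and 6.09 CPM under LacZ. Its groups could not be told apart by range, and its log2 fold changes lay between -0.04 and 0.1 in the comparisons of 2 groups, with -0.11 ± 0.29 for the interaction. Sox10, which acts at every stage of the lineage, had 0.369, 1.83 and 5.48 CPM under the knockdown label and 0.281, 2.08 and 6.5 CPM under LacZ without stress. With stress Sox10 had 0.451, 1.55 and 4.24 CPM under the knockdown label and 0.632, 1.68 and 5.65 CPM under LacZ. Its highest library held 23.1 times its lowest, and each group spanned most of that range.

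Myrf, the factor that drives myelin genes in differentiating cells, had 0.784, 2.85 and 8.26 CPM under the knockdown label and 0.58, 3.57 and 6.06 CPM under LacZ without stress. With stress Myrf had 0.419, 2.1 and 3.85 CPM under the knockdown label and 0.966, 1.81 and 5.99 CPM under LacZ. The groups overlapped, and the log2 fold change for stress under the knockdown label was -0.71 ± 0.57 (edgeR, adjusted p = 1). Nkx2-2, a factor of early differentiation, had 0.612 to 1.27 CPM with stress and 0.57 to 3.06 CPM without stress under the knockdown label. Its log2 fold change there was -0.72 ± 0.3 (edgeR, unadjusted p = 0.0234, adjusted p = 1), with 7 of 7 stressed libraries below the unstressed mean. Leaving out each library in turn gave -0.85 to -0.44, and the interaction was -0.67 ± 0.42 (adjusted p = 1). For stress under the knockdown label, Nkx2-2 also had an unadjusted p under 0.05 by DESeq2 and with the GC covariate. By limma it did not. Olig1 had 0.3 ± 0.22 for the knockdown label without stress, and Nkx6-2, a factor of mature cells, had 0.129 to 1.05 CPM from 4 to 35 counts.

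Among the genes of myelin structure, Mbp, the myelin basic protein that compacts the sheath, had 53.7, 89.5 and 161 CPM under the knockdown label and 59.2, 77.5 and 176 CPM under LacZ without stress. With stress Mbp had 44.6, 76.2 and 144 CPM under the knockdown label and 51.4, 78.5 and 133 CPM under LacZ. All groups overlapped over most of their length, and the medians of 3 groups lay between 76.2 and 78.5 CPM. Mobp, a basic protein of compact myelin, had 5.56, 23.6 and 29 CPM under the knockdown label and 6.53, 14.8 and 25.2 CPM under LacZ without stress. In stressed mice Mobp had 4.84, 11.6 and 33.1 CPM under the knockdown label and 8.73, 14.4 and 26.8 CPM under LacZ. Its log2 fold change for stress under the knockdown label was -0.33 ± 0.43 (edgeR, adjusted p = 1).

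Mal, a raft protein that sorts myelin components, had 27.6, 45.4 and 130 CPM under the knockdown label and 28.4, 45.6 and 116 CPM under LacZ without stress. With stress Mal had 23.1, 31.4 and 93.9 CPM under the knockdown label and 28.8, 45.9 and 72.2 CPM under LacZ. Single libraries stood well above the others in both unstressed groups. Cnp, the phosphodiesterase of non-compact myelin, had 11.2, 28.5 and 63.1 CPM under the knockdown label and 12.2, 39.2 and 60.6 CPM under LacZ without stress. Stressed libraries had 10.3, 33.2 and 60.9 CPM of Cnp under the knockdown label and 15.6, 25.7 and 73.8 CPM under LacZ. Its log2 fold changes lay between -0.09 and 0.04 with standard errors of 0.45.

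Pmp22, a membrane protein best known from peripheral myelin, had the smallest p of the members. Without stress it had 5.7, 9.48 and 10.3 CPM under the knockdown label and 3.86, 6.91 and 7.81 CPM under LacZ, with 6 of 7 knockdown libraries above the LacZ mean. With stress Pmp22 had 8.31, 9.25 and 11.4 CPM under the knockdown label and 5.98, 8.52 and 9.88 CPM under LacZ. Unstressed LacZ libraries were the lowest group, although 2 knockdown libraries lay within their range. The log2 fold change was 0.48 ± 0.17 for the label without stress (edgeR, unadjusted p = 0.00723, adjusted p = 1) and 0.2 ± 0.17 with stress. For stress under LacZ it was 0.38 ± 0.17 (unadjusted p = 0.0293, adjusted p = 1), and for the label over both stress states it was 0.34 ± 0.12 (unadjusted p = 0.00722, adjusted p = 1). By limma, Pmp22 had an unadjusted p under 0.05 for the label without stress and over both stress states. For stress under LacZ it did not. The interaction was -0.28 ± 0.23 (edgeR, adjusted p = 1).

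Pmp22 is also made by fibroblasts and Schwann cells, whose markers were therefore set beside it. The 6 fibroblast markers (Col1a1, Col1a2, Dcn, Lum, Slc6a13, Igf2) summed to 42.6, 59.7 and 81.7 CPM under the knockdown label and 20.4, 35.6 and 88.8 CPM under LacZ without stress. With stress they summed to 64.9, 82.9 and 1720 CPM under the knockdown label and 20.1, 58.4 and 87 CPM under LacZ. Of the 6 Schwann markers, Pmp2 and Sox2 were listed at 0 in every library, but 100% of their spans lies inside Gm37389 and Sox2ot, so these values do not show absence. The Schwann sums were 3.82 to 6.2 CPM under the knockdown label and 3.35 to 7.05 CPM under LacZ without stress. The fibroblast medians were higher under the knockdown label in both stress states, like those of Pmp22, and their part in the result was not tested.

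At the myelin surface, Mog, a glycoprotein of central myelin, had 5.23, 9.01 and 23.4 CPM under the knockdown label and 7.23, 11.2 and 21.7 CPM under LacZ without stress. In stressed mice Mog had 4.32, 7.52 and 16.8 CPM under the knockdown label and 8.41, 8.92 and 15.1 CPM under LacZ. Of the 7 stressed knockdown libraries, 5 lay below every stressed LacZ library, at 4.32 to 7.57 CPM, 1 lay inside the LacZ range and 1 above it. That 1 inside was the lowest such count over the tested members and the 4 comparisons of 2 groups. Its share over all genes was not computed. The log2 fold change of Mog for the label with stress ran from -0.44 to -0.07 with each library left out in turn (edgeR). Mag, an adhesion protein of the inner sheath, had 1.92, 5.66 and 20.2 CPM under the knockdown label and 2.14, 10.3 and 14.4 CPM under LacZ without stress. With stress Mag had 1.03, 5.29 and 13.1 CPM under the knockdown label and 3.38, 6.09 and 21 CPM under LacZ. Over all libraries Mag varied 20.3-fold and Mog 5.43-fold. For stress under the knockdown label the log2 fold change was -0.36 ± 0.32 for Mog, -0.28 ± 0.56 for Mag and -0.58 ± 0.37 for Opalin (edgeR, adjusted p = 1 for each).

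Ugt8a, which makes the galactolipid of myelin, had 24.9, 39.4 and 191 CPM under the knockdown label and 16.9, 39.2 and 106 CPM under LacZ without stress. With stress Ugt8a had 16.4, 37.4 and 86.6 CPM under the knockdown label and 21.9, 51.6 and 79.9 CPM under LacZ. Its highest value came from a single library, knockdown unstressed replicate 7. For stress under the knockdown label the log2 fold changes were -0.64 ± 0.47 for Ugt8a and -0.62 ± 0.47 for the aspartoacylase Aspa, and -0.64 ± 0.34 for Fa2h, which hydroxylates the fatty acids of these lipids (edgeR, adjusted p = 1 for each). Gal3st1, the sulfatide synthase, had -0.23 ± 0.3 there.

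Klk6, a protease of mature oligodendrocytes, had 0.214, 0.915 and 5.8 CPM under the knockdown label and 0.0351, 1.06 and 3.31 CPM under LacZ without stress. With stress Klk6 had 0.355, 1.88 and 3.9 CPM under the knockdown label and 0, 1.36 and 10.9 CPM under LacZ. It was the most variable member, with a log2 fold change of 1.08 ± 0.92 for stress under LacZ (edgeR, adjusted p = 1). Enpp2, which makes lysophosphatidic acid, was far steadier at 135 to 279 CPM, and its log2 fold change there was 0.11 ± 0.16. Lpar1, a receptor for that lipid, had 7.88 to 43.2 CPM.

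**Figure D2:**
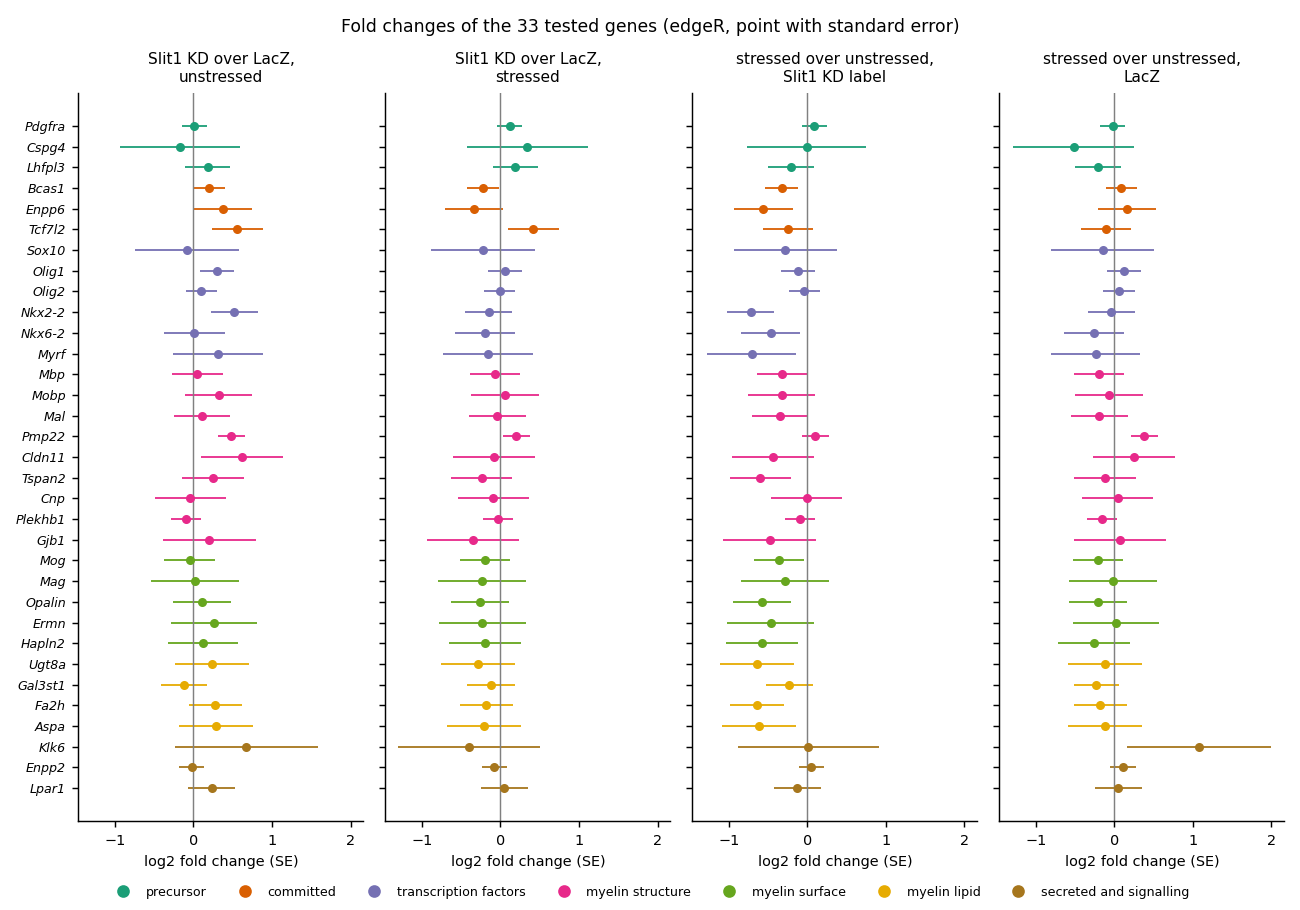
Log2 fold change of the 33 tested genes with its standard error in 4 comparisons, coloured by role. For stress under the knockdown label 29 of 33 points lie below 0, and in each panel most bars cross 0.

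The members with the smallest p on each side of 0 included several not yet given. For the knockdown label without stress the values below 0 were led by Plekhb1, a membrane-bound adaptor of myelinating cells, at -0.1 ± 0.19 (SE), Gal3st1 at -0.12 ± 0.29 and Cspg4 at -0.17 ± 0.76. With stress the label gave Tcf7l2 0.42 ± 0.32 above 0 and Bcas1 -0.22 ± 0.2, Enpp6 -0.34 ± 0.37 and Opalin -0.26 ± 0.37 below it. None of these differences passed the adjusted threshold (edgeR, adjusted p = 1 for each).

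For stress under LacZ, Plekhb1 had -0.16 ± 0.19 and Gal3st1 -0.23 ± 0.29 as log2 fold changes. For stress over both viruses, Pmp22 had 0.24 ± 0.12, Klk6 0.55 ± 0.64 and Enpp2 0.08 ± 0.12, and below 0 Nkx2-2 had -0.38 ± 0.21, Fa2h -0.41 ± 0.24 and Opalin -0.39 ± 0.26. For the label over both stress states, Olig1 had 0.18 ± 0.16, Mog -0.13 ± 0.22 and Plekhb1 -0.06 ± 0.14. In the interaction Cspg4 had 0.5 ± 1.08 and Pdgfra 0.1 ± 0.22, and Plekhb1 had 0.06 ± 0.27. Each of these had an adjusted p of 1 by edgeR, and Pmp22 and Nkx2-2 had unadjusted p of 0.0504 and 0.0837 for stress over both viruses.

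By role, the directions differed between comparisons, with no member past the adjusted threshold. For the knockdown label without stress, 26 of 33 members had a log2 fold change above 0, with a median of 0.2, against 47.1% above 0 and a median of -0.01 for all genes tested. With stress 8 of 33 were above 0, with a median of -0.15, against 42.3% and -0.03 for all genes. The 3 precursor genes had a median of 0.01 without stress and 0.19 with it, and the 18 myelin genes 0.16 and -0.19. These medians moved with the method. With the GC slope as covariate 24 of 33 members were above 0 without stress, with a median of 0.11 and 0.05 for myelin, and 10 of 33 with stress, with a median of -0.08. By limma the myelin median was -0.37 without stress, opposite to edgeR, and -0.38 with it. Both comparisons use different mice, but the genes of a list share the same libraries and are not independent.

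For stress under the knockdown label, 4 of 33 members were above 0, with a median of -0.33, against 47.5% and -0.01 for all genes. The 18 myelin genes had a median of -0.4, with Pmp22 alone above 0, the 6 transcription factors -0.38, the 3 committed genes -0.33 and the 3 precursor genes -0.01. Under LacZ the same comparison had 12 of 33 members above 0, with a median of -0.11, against 45.5% and -0.01 for all genes. The interaction had 5 of 33 above 0, with a median of -0.25 for all members and -0.3 for myelin, against 48.6% and -0.01 for all genes. The medians for the myelin genes moved with single mice. Without knockdown unstressed replicate 7 they were -0.16 for stress under the knockdown label, -0.04 for the interaction and -0.1 for the label without stress. With each library left out in turn they ran from -0.62 to -0.16, from -0.49 to -0.04 and from -0.1 to 0.42, in the same order. With the GC slope as covariate and all mice they were -0.34, -0.2 and 0.05. By limma, with all mice, they were -0.16 for stress under the knockdown label and -0.01 for the interaction.

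Knockdown unstressed replicate 7 had the highest TMM-scaled CPM of 15 of the 33 members, and the same count over all genes was not made. It had 23.4 CPM of Mog, 220 CPM of Cldn11 and 191 CPM of Ugt8a, but 0.369 CPM of Sox10 and 0.105 CPM of Cspg4. It also had the lowest GC slope, -1.17, and the highest mitochondrial share, 14.2%. Of the remaining libraries, LacZ unstressed replicate 6 came closest to it in Mog, with 21.7 CPM. This order rests on the TMM factors. Without them LacZ unstressed replicate 6 held more Mog, with 878 counts of 39.5 M, against 445 of 30.6 M in knockdown unstressed replicate 7.

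Another 42 genes of the lineage, listed from textbook knowledge, were read alongside. Of these 39 were tested and 0 were called in any comparison by edgeR. For stress under the knockdown label 2 of 14 precursor genes and 2 of 25 mature genes were above 0, with medians of -0.23 and -0.2. Xylt1, which primes proteoglycan chains, had an unadjusted p under 0.05 there, at -0.48 ± 0.21 (edgeR, adjusted p = 1). The precursor genes Sox6 and Neu4 had -0.19 ± 0.21 and -0.29 ± 0.28.

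Transcripts of precursor and mature cells were compared as a ratio within each library. The log2 ratio of Pdgfra to Mog averaged 2.07 ± 0.63 (SD, n = 7) under the knockdown label and 1.94 ± 0.61 (n = 7) under LacZ without stress, a difference of 0.13 (two-sided exact permutation p = 0.7, adjusted p = 0.792). With stress it averaged 2.54 ± 0.59 (n = 7) under the knockdown label and 2.09 ± 0.48 (n = 7) under LacZ, a difference of 0.45 (exact permutation p = 0.138, adjusted p = 0.469). The ranges, 1.62 to 3.11 and 1.38 to 2.71, overlap for most of their length. Stress differences were 0.47 under the knockdown label (exact permutation p = 0.176, n = 7 each, adjusted p = 0.469) and 0.15 under LacZ (exact permutation p = 0.614, adjusted p = 0.792). With each library left out in turn, the label difference with stress ran from 0.33 to 0.6. The largest value came without knockdown stressed replicate 7 (exact permutation p = 0.0455, unadjusted), and was picked after all were seen.

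The log2 ratio of Enpp6 to Mog, transcripts of newly forming and of mature cells, averaged 0.09 ± 0.63 (SD, n = 7) under the knockdown label and -0.48 ± 0.6 (n = 7) under LacZ without stress. The difference was 0.56 (exact permutation p = 0.11, adjusted p = 0.469), with 5 of 7 knockdown libraries above the LacZ mean. With stress the averages were -0.05 ± 0.55 under the knockdown label and -0.13 ± 0.65 under LacZ, a difference of 0.08 (exact permutation p = 0.792, n = 7 each, adjusted p = 0.792). Stress differences were -0.13 under the knockdown label and 0.35 under LacZ (exact permutation p = 0.665 and p = 0.322, n = 7 each). All p-values were adjusted over 8 ratio tests, and the smallest p that all splits of 7 against 7 allow is 5.83e-04.

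**Figure D3:**
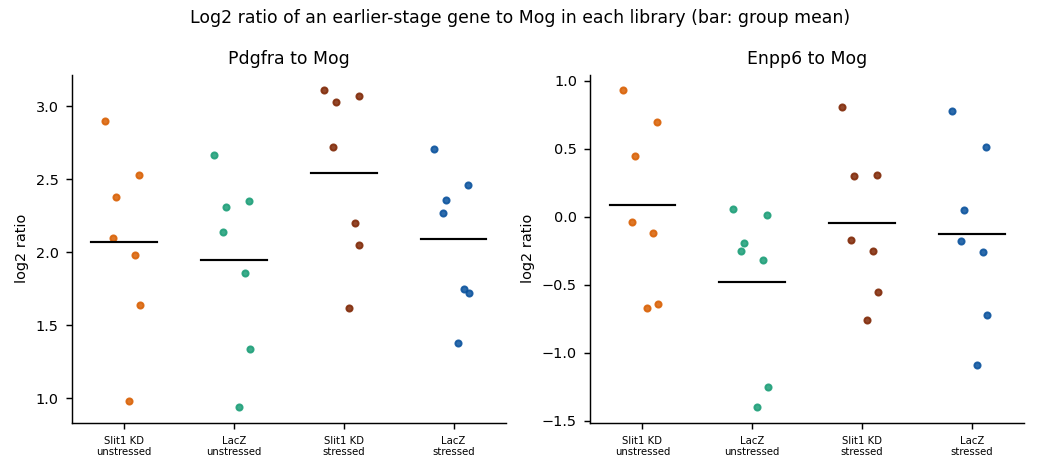
Log2 ratio of Pdgfra to Mog and of Enpp6 to Mog in each library, with bars for group means. The stressed knockdown group has the highest mean ratio of Pdgfra to Mog, 2.54, and its points overlap those of every other group.

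Across all 28 libraries, many members followed the GC slope. Of the 33 tested members 13 (39.4%) had an absolute r over 0.7 with the slope, against 54.1% of all genes. Cspg4 had r = 0.95, Sox10 0.92, Cnp 0.91, Myrf 0.85, Mbp 0.83 and Mag 0.8, while Ugt8a had -0.82, Tspan2 -0.8, Aspa -0.78 and Cldn11 -0.74. Pdgfra and Mog lay between these sets, with r = 0.33 and r = -0.2. Over the 33 members, r with the slope and exonic GC content had a correlation of 0.66. The longest transcript of Ugt8a has 38% GC and that of Sox10 61.8%. These values are descriptions over libraries that share the same slope.

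**Figure D4:**
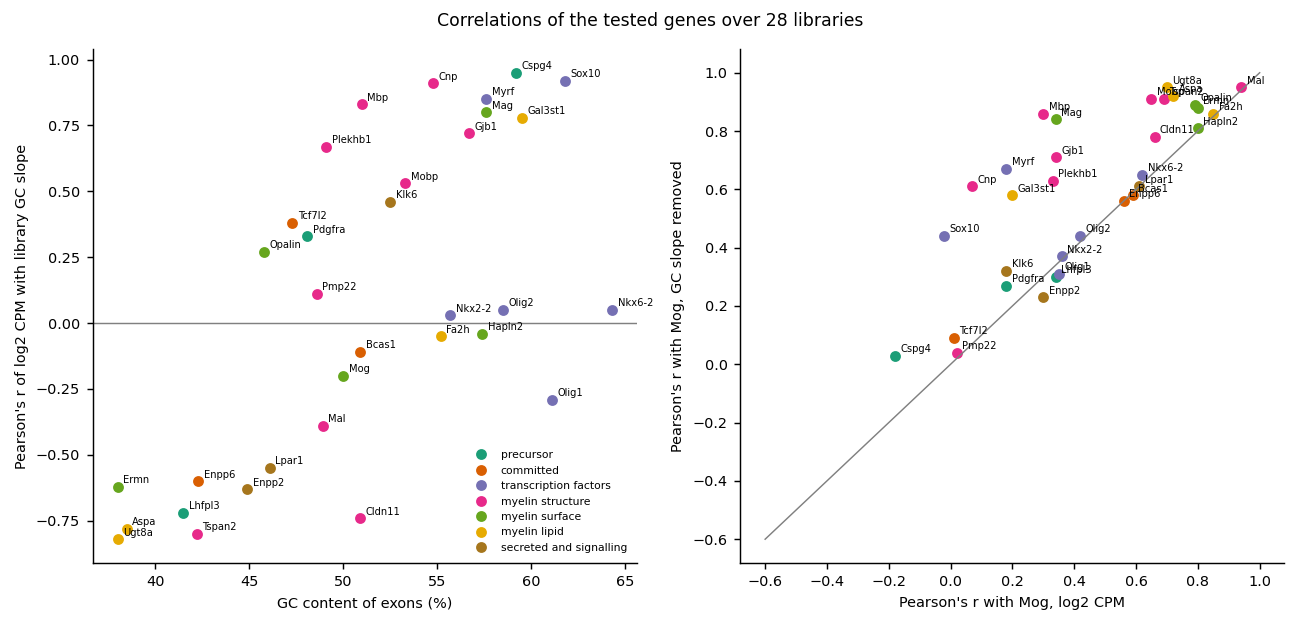
Left, GC content of the exons in a gene's longest transcript against the gene's correlation with the library GC slope. Right, the gene's correlation with Mog before and after the slope was removed, with the line of equality. Mbp, Mag, Cnp and Myrf lie far above the line, and Mal, Fa2h and Hapln2 lie close to it.

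The myelin genes moved together more closely once the slope was removed. Over the 153 pairs of 18 myelin genes the median r was 0.41, from -0.64 to 0.98 and with 117 pairs above 0, as measured. With the slope removed from each gene the median was 0.71, from -0.02 to 0.96, with 152 pairs above 0. Pmp22 stayed apart, with a median r of 0.1 with the other myelin genes and 0.04 with Mog. The mean of the myelin genes had r = 0.74 with that of the transcription factors, 0.52 with that of the committed genes and 0.27 with that of the precursor genes after removal of the slope.

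For single pairs, 12 relations were tested by two-sided permutation, with adjustment over the 12 for r and for rho. Mog and Mobp had r = 0.646 (permutation p = 1.20e-04, adjusted p = 0.00144; rho = 0.594, permutation p = 0.00109, adjusted p = 0.00846), 0.532 without the 2 libraries farthest from the median and 0.907 with the slope removed. Mog and Mag had r = 0.339 (permutation p = 0.077, adjusted p = 0.172; rho = 0.253, permutation p = 0.194), 0.238 without the 2 farthest libraries and 0.844 with the slope removed (permutation p = 1.00e-05, the smallest that the permutations can give). Of the promoters printed above, that of Mobp holds 6 matches of the SOX core, that of Mag 1 and that of Mog 0. A link of these matches to the relations was not tested.

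**Figure D5:**
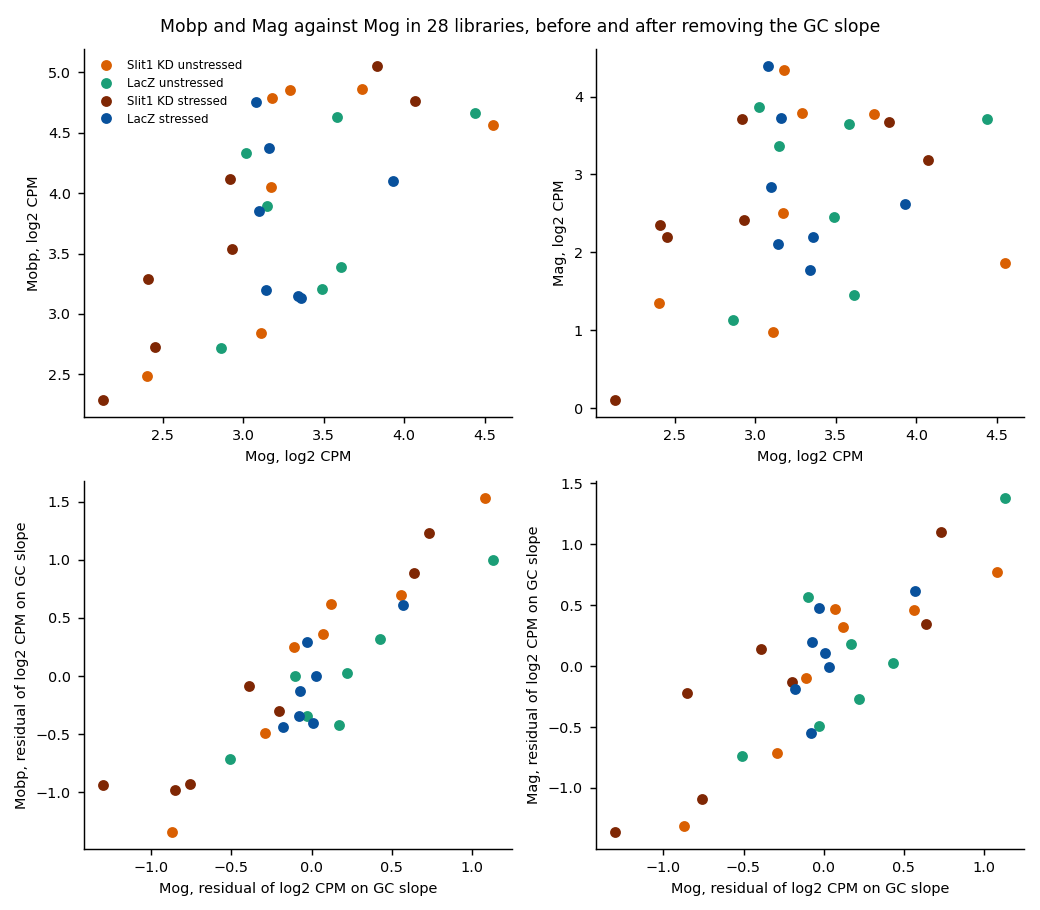
Mobp and Mag against Mog in 28 libraries, as log2 CPM (top) and as residuals on the library GC slope (bottom), coloured by group. The points of Mag and Mog form a broad cloud in the top panel (r = 0.339) and a narrow band in the bottom panel (r = 0.844).

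Both precursor genes behaved differently. Pdgfra and Cspg4 had r = 0.374 (permutation p = 0.0504, adjusted p = 0.151; rho = 0.422, permutation p = 0.0263, adjusted p = 0.0788), 0.433 without the 2 farthest libraries and 0.206 with the slope removed. Pdgfra and Mog had r = 0.183 (permutation p = 0.351, adjusted p = 0.468; rho = 0.124, permutation p = 0.528), 0.202 without the 2 farthest and 0.269 with the slope removed. No relation of Pdgfra with Mog passed the threshold in these mice. Pdgfra and the GC slope had r = 0.33 (permutation p = 0.0862, adjusted p = 0.172; rho = 0.307, permutation p = 0.113) and 0.345 without the 2 farthest.

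The committed gene Enpp6 was set against both stages. Enpp6 and Mog had r = 0.56 (permutation p = 0.00201, adjusted p = 0.00896; rho = 0.589, permutation p = 0.00141, adjusted p = 0.00846) and 0.561 with the slope removed. Without the 2 farthest libraries, knockdown unstressed replicate 7 and LacZ unstressed replicate 6, r was 0.38 (permutation p = 0.0558). Those mice therefore raised r, which ran from 0.478 to 0.614 with each library left out in turn. Enpp6 and Pdgfra had r = -0.113 (permutation p = 0.566, adjusted p = 0.679; rho = -0.0717, permutation p = 0.716), -0.0591 without the 2 farthest and 0.112 with the slope removed. Sox10 and Mog had r = -0.0202 (permutation p = 0.918, adjusted p = 0.918; rho = -0.0312, permutation p = 0.877), 0.119 without the 2 farthest and 0.439 with the slope removed (permutation p = 0.0195).

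The part of the brain in the punch was followed with 7 markers of striatal neurons, such as Drd1. Their sum was 47.1 to 110 CPM under the knockdown label and 47.1 to 138 CPM under LacZ without stress, and with stress it was 43.3 to 224 CPM under the knockdown label and 50.4 to 75.3 CPM under LacZ. Mog and this sum had r = 0.562 (permutation p = 0.00224, adjusted p = 0.00896; rho = 0.437, permutation p = 0.021, adjusted p = 0.0788) and 0.538 with the slope removed. Without knockdown stressed replicate 7 and LacZ unstressed replicate 6, which had the highest sums, r was 0.385 (permutation p = 0.0522), so those mice raised r here too. Pdgfra and the sum had r = -0.0213 (permutation p = 0.914, adjusted p = 0.918; rho = -0.288, permutation p = 0.137) and -0.236 without them.

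Mog and the mitochondrial share had r = 0.28 (permutation p = 0.148, adjusted p = 0.254; rho = 0.14, permutation p = 0.476) and 0.0478 without the 2 farthest libraries. Mog and the GC slope had r = -0.199 (permutation p = 0.31, adjusted p = 0.466; rho = -0.212, permutation p = 0.278) and -0.0247 without them. Of the 12 relations, with group means removed, Mog and Mobp had r = 0.656, Enpp6 and Mog 0.575 and Mog and the striatal sum 0.633.

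Ranked over all 19171 genes by r with Mog after removal of the slope, Mal was first at 0.955, Ugt8a second at 0.954 and Aspa at rank 4 with 0.918. Of the first 20 genes 10 were members and 2 were from the other lineage genes. Cnp stood at rank 165, Sox10 at 756 and Pdgfra at 2559. Tcf7l2, Pmp22 and Cspg4 came last of the members, with r of 0.095, 0.045 and 0.033. This ranking was made after the values were seen and describes these 28 libraries.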

How the data were processed

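The authors deposited 1 table of unnormalized fragment counts per library, made with featureCounts 1.6.2 on read pairs over whole gene spans of Ensembl release 90 (GRCm38), with no strand option and after duplicate removal, per the file headers. Counts over whole spans hold intronic reads, and fragments in overlapping genes were dropped. HISAT2, Subread and DESeq2 were named with mm10, per the submitters' processing notes. Identifiers were matched to symbols for 52403 of 52636 genes.

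Genes were kept by filterByExpr (19171), normalised with TMM factors, and the edgeR 4.0.16 quasi-likelihood test (robust, R 4.3.3) was fitted to all 28 libraries with a coefficient for each group, with Benjamini-Hochberg adjustment over all genes. DESeq2 1.42.0 and limma 3.58.1 were alternatives. The test was checked on simulated data. Log2 CPM used a prior count of 2, and group ranges are TMM-scaled CPM. The GC slope is the slope of a library's log2 CPM deviations on exonic GC, taken from each gene's longest GENCODE transcript. The counts also cover introns, whose GC is not in that value. Ratios used exact permutation tests and relations 100000 permutations (scipy 1.17.1). Replicates are separate mice, numbered in accession order, and no lane or batch per library was given in the sources used here.

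The members and lists were chosen with earlier results of these data known. Levels were given by group for 17 members chosen by name, those of Tcf7l2 without stress only. Values were also given in each comparison for the 3 members with the smallest p on either side of 0. Enpp6 replaced Gpr17, listed at 0, after the counts were seen. Promoters came from RefSeq (26 of 36 members matched), chosen after the values were seen. Values of some genes of the other lists are not reported here.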

Additional observations from a re-analysis of the deposited data

Results flagged for a closer look

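Within groups of 7, 9 of 148 sets of values held a library far from the others by Dixon's criterion (the gap to the nearest library over the group's range, at its 95% critical value), and chance flags about 1 in 20. Values are log2 CPM with the nearest library's in the same group.

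Knockdown stressed replicate 6 was lowest for 3 of them: Myrf, the myelin gene activator, at -1.09 against 0.97, Mag at 0.11 against 2.2, and the mean of the 6 lineage transcription factors at 0.03 against 0.9. In TMM-scaled CPM, with no prior count, Myrf was 0.419 against 1.91 and Mag 1.03 against 4.55. Knockdown unstressed replicate 7 was highest for Cldn11 at 7.78 against 5.83 and for Aspa at 6.14 against 4.35, and it had the lowest GC slope of all libraries, -1.17.

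LacZ stressed replicate 4 was lowest for both Olig factors, Olig1 at 2.58 against 3.21 and Olig2 at 1.45 against 2.12. LacZ stressed replicate 5 was highest for Mog at 3.93 against 3.36, or 15.1 against 10.2 CPM. LacZ unstressed replicate 1 was lowest for the precursor gene Lhfpl3 at 6.08 against 6.99, or 67.4 against 127 CPM, and had the highest GC slope, 1.21.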

How the results depend on the processing

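No member was called under any alternative: RLE or upper-quartile factors, no count filter or a CPM of 1 in 7 libraries, DESeq2, limma, the GC covariate, fits of 2 groups alone, a threshold of 0.1 on the adjusted p, each library left out in turn, or without both libraries that stood apart (knockdown stressed replicate 2 and LacZ stressed replicate 4, chosen after seeing the data). By limma the log2 fold change of Cldn11 for the knockdown label without stress was -0.44 against 0.62 by edgeR, and the median of the myelin genes was -0.37 against 0.16. The cause was not tested. Relations were judged here by unadjusted p. With the GC slope removed, Sox10 and Mog turned to r = 0.439 from -0.0202, and Mog and Mag passed the threshold at r = 0.844. Without the 2 farthest libraries, Pdgfra and Cspg4 passed at r = 0.433 (permutation p = 0.0278, unadjusted), and Enpp6 and Mog (r = 0.38) and Mog and the striatal sum (r = 0.385) no longer did. With each library left out in turn, the log2 ratio of Pdgfra to Mog between stressed groups ran from 0.33 to 0.6, and r ran from 0.198 to 0.454 for Mog and Mag, from 0.315 to 0.495 for Pdgfra and Cspg4 and from 0.285 to 0.425 for Pdgfra and the GC slope. Ratios and relations of Gpr17 were not run, since it was listed at 0. No paired analysis was run, because the labels do not say which mice belong together and the replicate numbers follow accession order only. The GC slope went partly with this order. In every group it was 0.45 to 1.21 in replicates 1 and 2 and -1.17 to -0.3 in replicates 5 and 7. Replicates 3, 4 and 6 held slopes of both signs. A fit with this order as a block was not run.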

Other observations

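Members differed in how much of their spread over libraries went with the GC slope. With the GC slope removed, the SD of log2 CPM over 28 libraries was 0.46 for Cspg4 against 1.48 before, 0.5 against 1.29 for Sox10 and 0.37 against 0.86 for Cnp. For Mog it was 0.58 in both, for Pmp22 0.36 in both and for Klk6 1.72 against 1.9. Lowest in the mean of the 18 myelin genes was knockdown stressed replicate 6 at 2.66 log2 CPM, and highest was knockdown unstressed replicate 7 at 4.44. LacZ unstressed replicate 6 followed at 4.41 and knockdown stressed replicate 7 at 4.19, with summed striatal markers of 138 and 224 CPM, and their part in the myelin level was not tested.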
